A study of Mus musculus with 2 samples.

Results

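The 10 genes described here (Acta2, Actg2, Tagln, Cnn1, Tpm1, Tpm2, Myh11, Myl9, Mylk and Des) encode the contractile apparatus of smooth muscle. In the mouse spleen this apparatus is found in the capsule and trabeculae and in the walls of arteries. The genes were taken by symbol, not by a measured value, and all 10 were found among the 43346 genes with an Ensembl identifier in the deposited tables. RNA-seq of polyadenylated RNA was made from 2 libraries of 1 spleen, which came from a male C57BL/6J mouse aged 10 weeks. The libraries are technical replicate 2, made in 2015, and technical replicate 1, and both belong to biological replicate 1. The labels name no treatment, and they do not say whether the libraries came from 1 RNA sample or from separate pieces of the organ. Each side of the comparison is a single library, so there is no spread between replicates, no SD and no p-value, and differences are between these 2 libraries and not between conditions.

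Smooth muscle shortens when calcium-bound calmodulin activates myosin light chain kinase, which phosphorylates the regulatory light chain and lets the smooth muscle myosin heavy chain pull on actin. Tropomyosin lies along the actin filament, calponin and transgelin bind it, and desmin filaments tie the contractile units together. Most of these genes carry sites for serum response factor, which acts with myocardin family coactivators. The genes are not equally specific. Myh11 and Cnn1 are close to restricted to smooth muscle, Acta2, Tagln and Des are also made by pericytes, myofibroblasts and fibroblastic reticular cells, and Myl9, Mylk and the tropomyosin genes are made in platelets and many other non-muscle cells. In a bulk library, fewer cells of a type and less RNA per cell cannot be told apart, and neither can capsule and vessel.

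Total expected counts on genes were 3806381 in technical replicate 2 and 27528824 in technical replicate 1, a depth ratio of 7.23. Globin and mitochondrially encoded genes together took 44.6% of all TPM (a level per transcript length that sums to the same total in each library) in technical replicate 2 and 14.9% in technical replicate 1. The libraries therefore stand apart in composition, and ratios depend on the scale. The main ratio below is the log2 ratio of expected counts, technical replicate 2 over 1, scaled by TMM (trimmed mean of M values). A gene was called higher or lower where its exact 95% interval, which covers counting error only, lay wholly beyond 1.5-fold. Scaling by total counts gives log2 ratios that are lower by 1.26 than these. The median log2 ratio of the 12467 genes tested was -0.27 with TMM, -1.53 with total counts and -2.10 as a difference of log2(TPM + 1). For differences of log2 TPM no interval was used, and a call means only that the difference itself was beyond 1.5-fold. Of 10 spleen markers (B cell, T cell, red pulp macrophage and stromal genes), 10 reached 1 TPM in technical replicate 2 and 9 in technical replicate 1, where the homeobox gene Nkx2-5 was at 0.08 TPM.

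The contractile genes were present in both libraries, in a different order. Summed over the 10 genes, the level was 394.95 TPM in technical replicate 2 and 447.98 TPM in technical replicate 1. With globin and mitochondrially encoded genes left out of the total, the direction turned, at 713.15 TPM in technical replicate 2 and 526.33 TPM in technical replicate 1. Tagln alone held 49.3% of this sum in technical replicate 2 and 18.9% in technical replicate 1, while Tpm1 held 1.71% in technical replicate 2 and 33.1% in technical replicate 1. All 10 genes passed the filter of a mean of 1 TPM and 50 counts over both libraries. Relative to the other genes tested, 6 were called higher in technical replicate 2, 2 were called lower and 2 were not called. Over all tested genes, 28.0% were called higher and 32.6% lower, 60.6% in either direction. The median log2 ratio of the 10 genes was 1.59, against -0.27 for all tested genes.

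**Figure D1:**
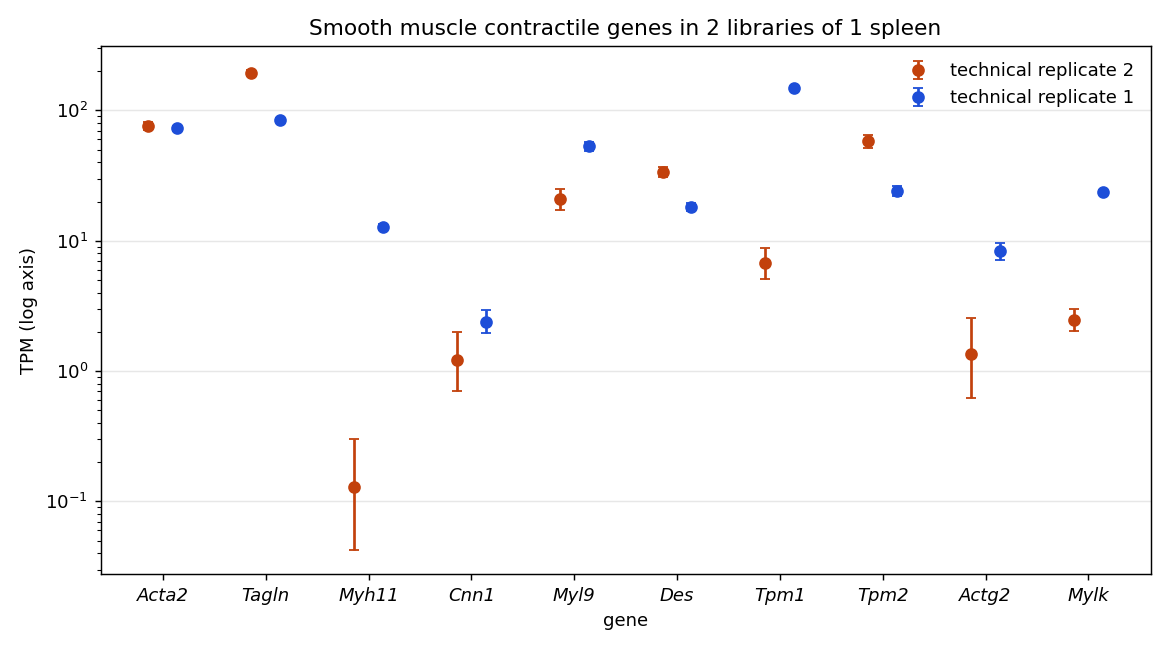
Level of each contractile gene in TPM (log axis) in technical replicate 2 (orange, left of each pair) and technical replicate 1 (blue, right), with points for the deposited value and bars for the 95% counting interval. Tagln tops technical replicate 2 at 194.78 TPM and Tpm1 tops technical replicate 1 at 148.15 TPM. Myh11 is lowest in technical replicate 2 at 0.13 TPM and Cnn1 is lowest in technical replicate 1 at 2.40 TPM.

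Acta2 encodes smooth muscle alpha-actin, the main thin filament protein of vascular smooth muscle (chr19:34241090-34255590, minus strand, GRCm38). It had 734 counts and 75.93 TPM in technical replicate 2, and 2215 counts and 72.79 TPM in technical replicate 1. Its TPM was thus nearly the same in both libraries. The scaled count ratio was 2.52 on the log2 scale (95% interval 2.40 to 2.64), a call of higher, while the difference of log2(TPM + 1) was 0.06 and was not past 1.5-fold. Against the median of all tested genes on the same scale, Acta2 stood 2.79 above with TMM and 2.16 above with TPM.

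Actg2 encodes smooth muscle gamma-actin, the actin of visceral smooth muscle (chr6:83512905-83536265, minus strand). It had 9 counts and 1.35 TPM in technical replicate 2, and 171 counts and 8.33 TPM in technical replicate 1. Its log2 ratio of -0.13 (-1.28 to 0.83) was not called. Acta2 was above Actg2 in both libraries, with counting intervals of TPM that do not overlap. The actins are close copies, so their reads can be told apart only where the sequences differ. Over the whole coding sequence, 1131 bases in Acta2 and 1128 in Actg2, identity was 84.2%, with 179 differing positions, and the longest run shared without a difference was 29 bases. The deposited posterior SD of the gene count was 0 in both libraries for all 10 contractile genes, as for 86.5% of the genes tested. The deposited estimates thus carry no uncertainty from reads shared between these genes and others. Actg2 has an upstream-started transcript, Actg2-201, and a transcript from a nearer start, Actg2-202. Actg2-202 held all 9 counts in technical replicate 2, against 64.78% of the gene's TPM (111.7 of 171 counts) in technical replicate 1. Actg2-201 had 0 counts in technical replicate 2, which allows a share of up to 33.3% of its 9 counts, against 30.66% of TPM (55.8 counts) in technical replicate 1. The shares of Actg2 transcripts in the libraries were therefore not distinguishable at this depth.

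Tagln encodes transgelin, an actin-binding protein of the calponin family that appears early in smooth muscle differentiation (chr9:45929619-45936058, minus strand). It had 1660 counts and 194.78 TPM in technical replicate 2, and 2256 counts and 84.50 TPM in technical replicate 1. Technical replicate 2 was the higher on every scale used. The log2 ratio was 3.67 (3.58 to 3.77), above 94.7% of the genes tested, and the difference of log2(TPM + 1) was 1.20. Antisense exons of Gm48529 cover 62.4% of the Tagln exon bases in GENCODE M21 and exons of Pcsk7 cover 5.43%. Whether the counting used strand is not given in the sources used here, so antisense reads may be part of its count. Pcsk7 itself had 47 counts in technical replicate 2 and 802 in technical replicate 1.

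Cnn1 encodes calponin, an inhibitor of actomyosin ATPase and a marker of differentiated smooth muscle (chr9:22099216-22109630, plus strand). It had 16 counts and 1.22 TPM in technical replicate 2, and 100 counts and 2.40 TPM in technical replicate 1. It was the least abundant of the 10 in technical replicate 1. Its log2 ratio of 1.47 (0.61 to 2.24) was called higher by a narrow margin. The call was lost with total-count scaling (0.21) and its direction turned in log2(TPM + 1), with a difference of -0.61.

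The tropomyosin genes moved apart. Tpm1 (chr9:67022590-67049406, minus strand) had 57 counts and 6.75 TPM in technical replicate 2, and 3994 counts and 148.15 TPM in technical replicate 1. Tpm2 (chr4:43514711-43523765, minus strand) had 350 counts and 57.82 TPM in technical replicate 2, and 508 counts and 24.04 TPM in technical replicate 1. Tpm2 was thus above Tpm1 in technical replicate 2 and below it in technical replicate 1. The log2 ratio of Tpm1 was -2.01 (-2.42 to -1.64), called lower, and that of Tpm2 was 3.58 (3.38 to 3.78), called higher. As differences of log2(TPM + 1), they were -4.27 for Tpm1 and 1.23 for Tpm2. With the GC and length trend over all genes removed, the ratio of Tpm2 was 0.64 and lost its call, while Tpm1 kept its own at -2.33. Both genes make muscle tropomyosins with the same exon plan. The coding sequences of Tpm1-216 and Tpm2-203 have 852 bases each and are 75.2% identical, with 211 positions that differ.

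Tpm1 makes proteins for muscle and for other cells from 1 gene by alternative starts and exons. A distal start uses exon 1a and gives the long tropomyosins, those of muscle among them. An internal start uses exon 1b and gives the short tropomyosins of non-muscle cells. After exon 1a comes either exon 2a, which smooth muscle uses, or exon 2b, which striated muscle and other cells use. Both pairs are shown because the deposited transcript shares turn on them. The capitals in the exon 1 sequences mark the start codon.

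Tpm1 exon 1a, coding part, chr9:67049019-67049132, minus strand: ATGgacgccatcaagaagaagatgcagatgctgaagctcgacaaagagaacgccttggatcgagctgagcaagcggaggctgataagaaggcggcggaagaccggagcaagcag
Tpm1 exon 1b, coding part, chr9:67043578-67043709, minus strand: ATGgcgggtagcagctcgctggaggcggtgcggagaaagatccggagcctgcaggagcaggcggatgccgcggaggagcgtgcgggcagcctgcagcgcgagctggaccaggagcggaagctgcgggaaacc

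In the exon 2 sequences, capitals mark the bases that differ between the alternatives.

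Tpm1 exon 2a, chr9:67048124-67048249, minus strand: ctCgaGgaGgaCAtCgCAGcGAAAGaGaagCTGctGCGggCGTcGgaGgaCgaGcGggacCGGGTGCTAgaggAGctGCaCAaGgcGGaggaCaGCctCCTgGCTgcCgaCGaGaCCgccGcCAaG
Tpm1 exon 2b, chr9:67047786-67047911, minus strand: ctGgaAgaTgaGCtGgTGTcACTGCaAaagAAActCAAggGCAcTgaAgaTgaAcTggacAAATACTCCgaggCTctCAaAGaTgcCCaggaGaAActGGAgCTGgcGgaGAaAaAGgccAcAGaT

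Of the 126 bases in exons 2a and 2b, 66 differ and 47.6% are identical. Exon 1a has 114 coding bases and exon 1b has 132. The exons are far enough apart in sequence for reads to separate them, although exons shared by all transcripts carry no such information.

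Most Tpm1 signal in both libraries came from transcripts of the internal, non-muscle start. Transcripts with exon 1b held 90.4% of Tpm1 TPM in technical replicate 2 (6.09 TPM, 52.69 counts) and 75.5% in technical replicate 1 (111.86 TPM, 3119.24 counts). As a share of rounded counts this was 93.0% in technical replicate 2 (exact Clopper-Pearson 95% interval 83.0% to 98.1%) and 78.1% in technical replicate 1 (76.8% to 79.4%). The intervals do not overlap, but they take assigned counts as observed and leave out the uncertainty of assigning reads to transcripts. Tpm1-211, which held all exon 1b counts in technical replicate 2, had a posterior SD of 9.21 counts there, out of 57 for the gene. A difference in share between the libraries is therefore not settled. The internal start led in both libraries. Transcripts with exon 1a held 0.65 TPM (4.31 counts) in technical replicate 2 and 27.73 TPM (697.31 counts) in technical replicate 1. Both starts were therefore at lower TPM in technical replicate 2.

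Exon 2a, the smooth muscle alternative, was assigned counts in 1 transcript, Tpm1-214. That transcript had 0 of 57 counts in technical replicate 2, which allows a share of up to 5.26% by counting error alone. In technical replicate 1 it had 146.1 counts, 3.66% of Tpm1 counts. A difference between the libraries was therefore not detectable at this depth. The estimate in technical replicate 1 is also uncertain, with a posterior SD of 65.78 counts. Tpm1-215, which joins exon 2a with exons 6b and 9d as in classical smooth muscle tropomyosin, had 0 counts in both libraries, with posterior SDs of 7.77 counts in technical replicate 2 and 32.37 counts in technical replicate 1. Exon 2b transcripts had 4.31 counts in technical replicate 2 and 551.21 in technical replicate 1.

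At the other end of the gene, exon 9d, used by smooth muscle and non-muscle cells, followed exon 8 in transcripts with 90.4% of TPM in technical replicate 2 and 78.2% in technical replicate 1. Exon 9a, used by striated muscle, was in transcripts with 9.64% of TPM in technical replicate 2 and 6.09% in technical replicate 1. Behind the value for technical replicate 2 were 4.31 counts, all of Tpm1-203. Behind that for technical replicate 1 were 251.35 counts, of which Tpm1-201 had 203.49. Exon 9c, known from brain, had 0 counts in technical replicate 2 and 368.03 counts in technical replicate 1, all of Tpm1-209, which runs through exon 9c to the end of the gene.

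**Figure D2:**
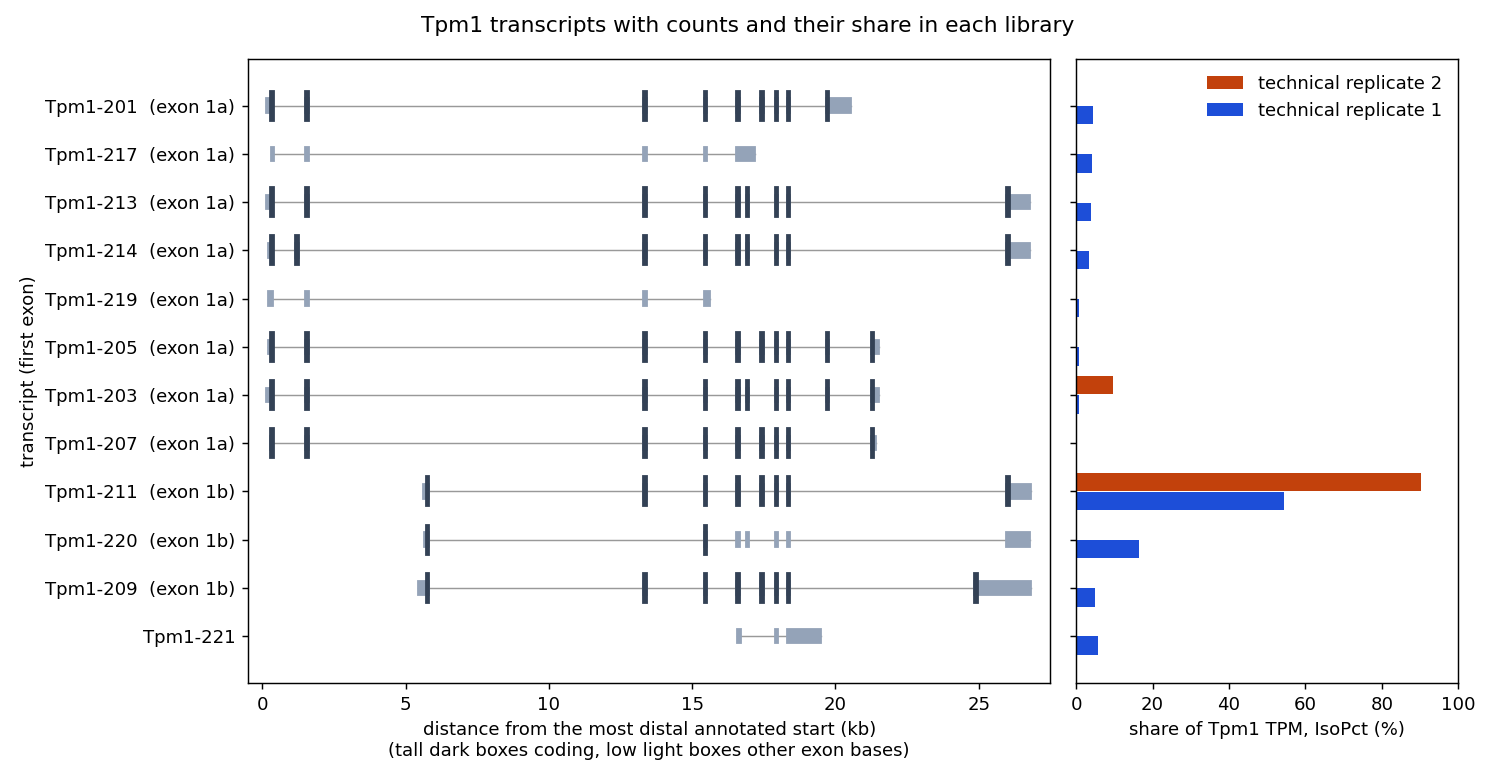
Left, the 12 Tpm1 transcripts with counts in either library, drawn from the most distal annotated start (kb), with tall dark boxes for coding bases and low light boxes for other exon bases. Right, each transcript's share of Tpm1 TPM (%) in technical replicate 2 (orange, upper bar) and technical replicate 1 (blue, lower bar): Tpm1-211, from exon 1b, has 90.33% in technical replicate 2 and 54.29% in technical replicate 1.

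Tpm1-211, a short tropomyosin with exons 1b, 6b and 9d, was the leading Tpm1 transcript in both libraries. It had 90.33% of TPM (52.69 counts, posterior SD 9.21) in technical replicate 2 and 54.29% (2179.88 counts, posterior SD 62.4) in technical replicate 1. Tpm1-220, annotated as a target of nonsense-mediated decay, had 0 counts in technical replicate 2 and 571.33 counts, 16.41% of TPM, in technical replicate 1. Its share of counts in technical replicate 1 was 14.3% (13.2% to 15.4%). Counting error alone allows up to 5.26% for a count of 0 in technical replicate 2. Neither figure covers the uncertainty of assignment, with posterior SDs of 2.35 counts in technical replicate 2 and 72.81 counts in technical replicate 1. Of the 21 annotated Tpm1 transcripts, 2 were above 0 in technical replicate 2 and 12 in technical replicate 1.

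Tpm2 signal was of the form with the more distal last coding exon. Tpm2-203 held 99.83% of Tpm2 TPM (348.88 counts) in technical replicate 2 and 85.37% (382.09 counts) in technical replicate 1. Its last coding exon lies at chr4:43514782-43514861, on the minus strand. Tpm2-201 and Tpm2-202 end instead in the coding exon at chr4:43515924-43516003. Tpm2-202 had 1.12 counts in technical replicate 2 and 44.46 counts in technical replicate 1. The share of Tpm2-203 in counts was 99.7% (98.4% to 99.99%) in technical replicate 2 and 75.2% (71.2% to 78.9%) in technical replicate 1. Tpm2-201 had 0 counts in technical replicate 2, which allows up to 0.857%, and 68.84 counts, 13.6% (10.7% to 16.9%) in technical replicate 1.

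Of the motor and its control, the heavy chain gene was the member with the most extreme ratio. Myh11 encodes the smooth muscle myosin heavy chain (chr16:14194535-14291372, minus strand). It had 5 counts and 0.13 TPM in technical replicate 2, and 1565 counts and 12.69 TPM in technical replicate 1. It was the only one of the 10 under 1 TPM in technical replicate 2. The log2 ratio was -4.17 (-5.80 to -2.95), called lower, and only 2.97% of the genes tested had a ratio as low or lower. The difference of log2(TPM + 1) was -3.60.

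Myl9 encodes the regulatory light chain that the kinase phosphorylates (chr2:156775420-156781658, plus strand). It had 121 counts and 20.74 TPM in technical replicate 2, and 640 counts and 53.13 TPM in technical replicate 1. Scaled counts were called higher, at 1.71 on the log2 scale (1.42 to 2.00), but the difference of log2(TPM + 1) was -1.32, and the ratio with the GC and length trend removed was -1.06. The direction for Myl9 therefore depends on the scale. Part of its TPM in technical replicate 1 rests on a short transcript: Myl9-203, a processed transcript of 345 bases, had 0 counts in technical replicate 2 and 62.43 counts in technical replicate 1. Those were 9.75% of the gene's counts in technical replicate 1 but 39.38% of its TPM, 20.92 TPM. The coding transcript Myl9-201 was at 20.74 TPM in technical replicate 2 and 32.21 TPM in technical replicate 1.

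Mylk encodes the myosin light chain kinase (chr16:34745210-35002420, plus strand). It had 112 counts and 2.48 TPM in technical replicate 2, and 3401 counts and 23.79 TPM in technical replicate 1. The log2 ratio was -0.81 (-1.09 to -0.54) and was not called, since the interval reached inside 1.5-fold. It was called lower with total-count scaling (-2.07) and in log2(TPM + 1) (-2.83). Mylk-201, the long kinase transcript, held 100% of TPM in technical replicate 2 and 96.55% in technical replicate 1, where Mylk-202, a retained intron, had 45.3 counts. Only these 2 Mylk transcripts were quantified, and Mylk-201 is the only coding one. Its share therefore says nothing about other coding forms of the kinase. The antisense genes E130310I04Rik and Gm21691 cover 4.87% and 1.99% of Mylk exon bases.

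Des encodes desmin, the intermediate filament protein of muscle (chr1:75360329-75368579, plus strand). It had 570 counts and 33.75 TPM in technical replicate 2, and 890 counts and 18.16 TPM in technical replicate 1. Technical replicate 2 was higher on each scale, with a log2 ratio of 3.47 (3.32 to 3.63) and a difference of 0.86 in log2(TPM + 1). The coding transcript Des-201 held 99.22% of TPM in technical replicate 2 and 87.59% in technical replicate 1. The rest came from the retained introns Des-203 and Des-202, with 1 count of Des-203 in technical replicate 2, and 19.43 counts of Des-203 and 6.69 of Des-202 in technical replicate 1. The antisense gene Gm15179 covers 5.86% of Des exon bases and had 3 counts in technical replicate 2 and 0 in technical replicate 1.

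Ordered by TPM, technical replicate 2 ran Tagln, Acta2, Tpm2, Des, Myl9, Tpm1, Mylk, Actg2, Cnn1 and Myh11. Neighbours had separate 95% counting intervals except Mylk with Actg2 and Actg2 with Cnn1. Technical replicate 1 ran Tpm1, Tagln, Acta2, Myl9, Tpm2, Mylk, Des, Myh11, Actg2 and Cnn1, with overlap only between Tpm2 (24.04 TPM) and Mylk (23.79 TPM). Tagln and Acta2 were thus among the leading 3 in both libraries. Tpm1 came sixth in technical replicate 2 and headed technical replicate 1.

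**Figure D3:**
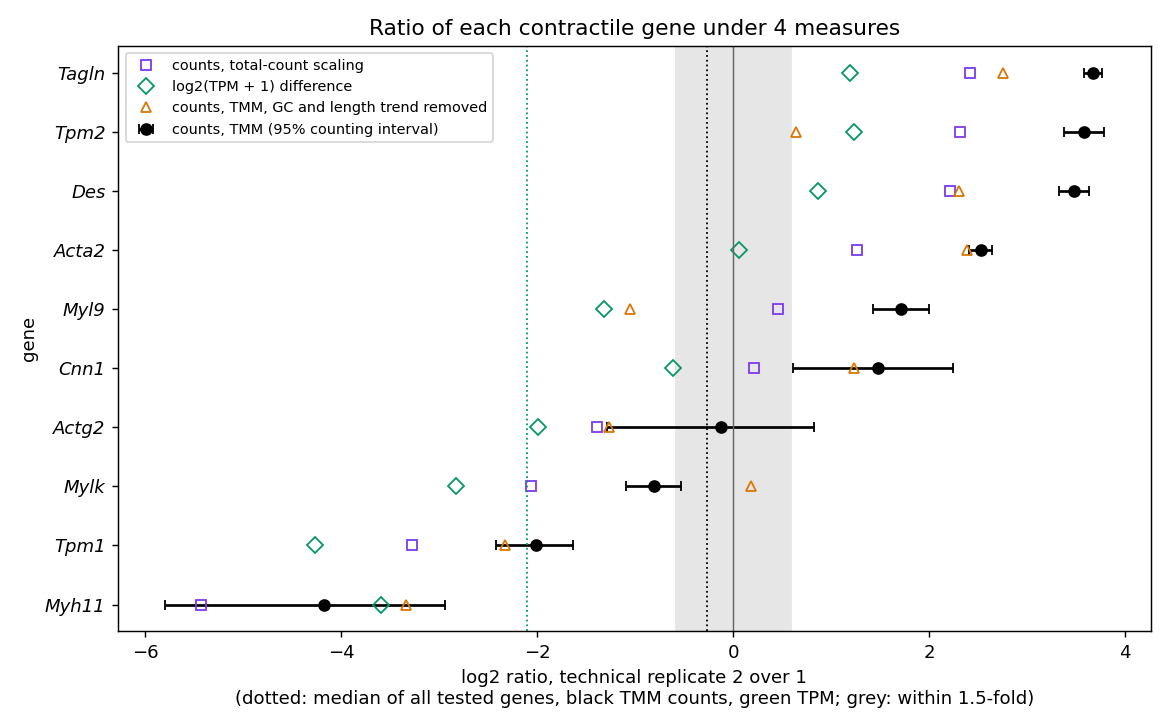
Log2 ratio of technical replicate 2 over 1 for each contractile gene on 4 scales: TMM-scaled counts with the 95% counting interval (black), total-count scaling (purple), the difference of log2(TPM + 1) (green) and TMM with the GC and length trend removed (orange). Dotted lines are medians of all tested genes (black TMM, green TPM) and grey marks 1.5-fold. Tagln, Des, Tpm2 and Acta2 lie above 0 on all 4 scales, with the lowest marker at 1.20, 0.86, 0.64 and 0.06, in that order. Myh11, Tpm1 and Actg2 lie below 0 on all 4, with the highest at -3.34, -2.01 and -0.13. The markers of Myl9, Cnn1 and Mylk lie on both sides of 0.

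Called alike under TMM, DESeq2, upper-quartile and total-count scaling and in log2(TPM + 1) were Tagln, Des and Tpm2 as higher, and Myh11 and Tpm1 as lower. These were 5 of 10 genes. The call of Tpm2 did not hold with the GC and length trend removed, which is not among these 5 scales. Over all tested genes, 8.02% were called higher and 30.5% lower under all 5, 38.5% in either direction. With total counts alone, 4 members were called higher (Acta2 in addition) and 3 lower (Mylk in addition), against 14.6% and 58.5% of all tested genes, 73.1% in either direction. In log2(TPM + 1), 3 were called higher and 6 lower (Mylk, Actg2, Myl9 and Cnn1 in addition), against 8.40% and 80.8% of all, 89.2% in either direction. These calls rest on the difference alone, with no counting interval. Actg2 and Cnn1 had only 9 and 16 counts in technical replicate 2. With DESeq2 size factors, the 6 and 2 calls of TMM stood against 29.5% and 30.5% of all, 60.0% in either direction. Relative to the median of all tested genes on the same scale, 7 of the 10 genes stood above it with TMM, with total counts and in log2(TPM + 1). Myh11, Tpm1 and Mylk stood below it. Actg2 lay only 0.14 above the median with TMM and 0.11 above it in log2(TPM + 1).

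Ratios between the libraries moved with base composition and length over all genes, and this touches the members. Over 12425 tested genes with a sequence, Spearman's correlation of the log2 ratio was 0.53 with GC content and -0.39 with length. Over the 10 contractile genes it was 0.30 with GC content and -0.44 with length. These are correlations across genes, which share the libraries and are not independent, and they are descriptions only. With the genes in 10 bins of equal size by GC content, median ratios ran between -1.67 in the lowest bin and 2.54 in the highest. Tpm2, at 58.0% GC, lay in the highest bin, 1.04 above its median. Myl9, at 56.6% GC, lay 0.35 above the median of its bin, and Des, at 56.2% GC in the same bin, lay 2.11 above it.

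The ratios that stood farthest from genes of like GC content were those of Myh11, Tagln and Acta2. Myh11, at 53.1% GC, stood at -4.90 against the median of its bin, and Mylk, in the same bin, at -1.54. Both have long transcripts, of 6632 bases for Myh11 and on average 7676 for Mylk, and the longest of 10 bins by length had a median of -1.58. Tagln lay 3.54 and Acta2 2.84 above the medians of their bins. Acta2 and Tpm1 fall in the same bin by GC content, at 49.6% and 49.95%. Their transcripts have 1781 and on average 1598 bases, and their log2 ratios were 2.52 and -2.01. The part of GC content and length in these ratios was not tested.

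**Figure D4:**
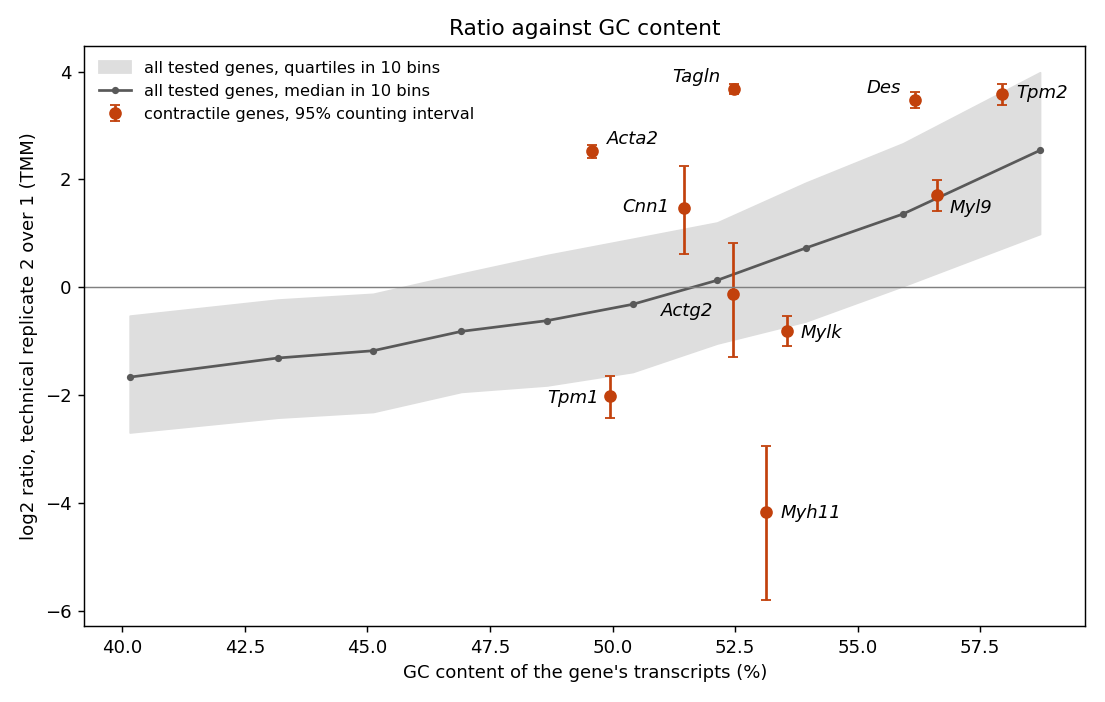
Log2 ratio of technical replicate 2 over 1 (TMM) against GC content of each gene's transcripts (%). The grey line and band are the median and quartiles of all tested genes in 10 bins, and orange points are the contractile genes with 95% counting intervals. Tagln and Acta2 lie 3.54 and 2.84 above the median of their bins and Myh11 lies at -4.90 against its own.

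With a quadratic trend in GC content and log length removed, the ratio was 2.75 for Tagln, 2.39 for Acta2, 2.30 for Des, 1.23 for Cnn1 and 0.64 for Tpm2. It was -3.34 for Myh11 and -2.33 for Tpm1. Mylk then stood at 0.18 and Actg2 at -1.27. Called higher were Tagln, Acta2 and Des, and called lower were Myh11, Tpm1 and Myl9. Of all genes with a GC value, 23.4% were called higher and 26.9% lower on this scale, 50.4% in either direction. The median was 0.41 for the 10 genes and -0.16 for all.

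All 10 genes had the same leading transcript in technical replicate 2 as in technical replicate 1. For Acta2, Tagln, Myh11 and Cnn1 this is fixed, since the tables hold 1 transcript of each. For the other 6 genes it was the same in 6 of 6, compared with 57.2% of 8561 tested genes with at least 2 transcripts and counts in both libraries. Fewer transcripts were above 0 in technical replicate 2 in 6 of 6, compared with 84.6% of those genes.

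Among regulators of smooth muscle genes, Srf had the highest log2 ratio. Of 14 regulators tested, 4 were called higher, 7 lower and 3 were not called, against 28.0% higher and 32.6% lower over all tested genes. The median log2 ratio was -1.005, and with the GC and length trend removed it was -0.21, close to the -0.16 of all genes. Srf encodes serum response factor, the DNA-binding factor of many contractile genes. It had 826 counts and 35.54 TPM in technical replicate 2, and 745 counts and 9.98 TPM in technical replicate 1. Its log2 ratio was 4.27 (4.12 to 4.41), and it was called higher on all 5 scales named above. It is also a GC-rich gene, at 64.4% GC.

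Myocd, its smooth muscle coactivator, was near the limit of detection, with 3 counts in technical replicate 2 and 24 in technical replicate 1, and was not tested. Of the related coactivators, Mrtfa was called higher at 1.95 (11.30 TPM in technical replicate 2 and 21.84 TPM in technical replicate 1). Mrtfb was called lower at -3.02 (0.87 TPM in technical replicate 2 and 10.14 TPM in technical replicate 1). Tead1, a transcription factor of the Hippo pathway, was called lower at -3.83 (-5.71 to -2.47), with 0.07 TPM in technical replicate 2 and 5.80 TPM in technical replicate 1. Tgfbr2, a receptor for transforming growth factor beta, was lower at -3.12 (1.86 TPM in technical replicate 2 and 87.13 TPM in technical replicate 1). Mef2c, a factor of muscle and also of B cells, was lower at -1.33. Tgfb1, the ligand, was not called at 0.09, with 8.18 TPM in technical replicate 2 and 66.49 TPM in technical replicate 1.

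Serum response factor binds the CArG box, and promoters of the contractile genes were searched for it because Srf was called higher. RefSeq promoters on GRCm38, 250 bases before to 50 after the start, were on hand for 7 of the 10 genes (all but Tagln, Myh11 and Actg2). An exact CArG box was found in 1 of the 7, Myl9, and in 1.63% of 32851 promoters. With 1 C or G allowed among the central bases, a match was found in 2 of the 7, Myl9 and Acta2, and in 9.98% of promoters. The motif reads the same on both strands. The stretches are shown with the matches in capitals.

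Myl9 promoter stretch, chr2:156775288-156775389, plus strand: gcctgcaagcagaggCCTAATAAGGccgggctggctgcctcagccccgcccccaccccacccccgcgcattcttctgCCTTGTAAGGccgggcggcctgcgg
Acta2 promoter stretch, chr19:34255383-34255472, minus strand: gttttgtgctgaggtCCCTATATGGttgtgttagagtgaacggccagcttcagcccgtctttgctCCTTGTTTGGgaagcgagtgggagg

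In Myl9 the exact box begins 161 bases before the start and the second match 99 bases before it. In Acta2 the matches begin 84 and 34 bases before the start. All these distances are from the RefSeq start. In GENCODE M21 the Acta2 gene starts farther upstream, at chr19:34255590 on the minus strand, so the Acta2 stretch lies within that gene. Both genes were called higher with TMM scaling, at 1.71 for Myl9 and 2.52 for Acta2, although Myl9 turned to -1.32 in log2(TPM + 1) and to -1.06 with the GC and length trend removed. Of the 5 promoters without a match, those of Cnn1, Des and Tpm2 belong to genes also called higher, at 1.47, 3.47 and 3.58. That of Tpm1 belongs to a gene called lower, and Mylk was not called. A match is a description of these letters and not evidence of binding.

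Genes of light chain phosphorylation and calcium signalling, a list that also holds calcium channels and receptors of vasoactive hormones, were more often called lower than higher in technical replicate 2. Of 16 tested, 2 were called higher, 10 lower and 4 were not called, against 28.0% higher and 32.6% lower over all tested genes. The median log2 ratio was -1.87, and with the GC and length trend removed it was -0.40. The tested genes had a median of 47.1% GC and 4024 bases, against 49.6% GC and 2394 bases over all tested genes. Calm2, a calmodulin gene, was lower at -2.95 (9.23 TPM in technical replicate 2 and 408.22 TPM in technical replicate 1). Ppp1cb, a catalytic subunit of myosin phosphatase, was lower at -3.18. Rhoa, a small GTPase of the actin cytoskeleton, was not called at -0.30.

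Ppp1r14a moved the other way. It encodes an inhibitor of myosin phosphatase that is abundant in smooth muscle. It had 153 counts and 65.73 TPM in technical replicate 2, and 16 counts and 2.46 TPM in technical replicate 1. Its log2 ratio of 7.37 (6.63 to 8.22) was the highest among called genes of the 4 lists, and the gene has 61.7% GC and 531 bases.

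Other structural genes of smooth muscle were mixed. Of 27 tested, 10 were called higher, 8 lower and 9 were not called, against 28.0% higher and 32.6% lower over all tested genes. The median log2 ratio was 0.08, and -1.99 in log2(TPM + 1). Cavin1, a coat protein of caveolae, was higher at 3.64 (48.56 TPM in technical replicate 2 and 21.14 TPM in technical replicate 1). Csrp1, a LIM protein that binds alpha-actinin, was higher at 1.01, and Flna, an actin crosslinker, at 0.79. By TPM both were instead lower in technical replicate 2, where Csrp1 was at 55.68 TPM and Flna at 50.49 TPM, against 152.48 TPM for Csrp1 and 325.07 TPM for Flna in technical replicate 1. Vim, the intermediate filament protein of mesenchymal and blood cells, was lower at -0.91. Itga8, an integrin chain of smooth muscle and mesenchyme, had 0 counts in technical replicate 2 and 1154 in technical replicate 1. Its upper 95% bound was -4.17 on the log2 scale.

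Non-muscle counterparts of the 10 genes were mixed as well. Of 14 tested, 6 were called higher, 3 lower and 5 were not called, against 28.0% higher and 32.6% lower over all tested genes. The median log2 ratio was 0.46, but it was -1.84 in log2(TPM + 1) and -0.05 with the GC and length trend removed. With TMM scaling, the tropomyosin counterparts Tpm3 and Tpm4 did not share a direction. The heavy chains Myh9 and Myh10 both had negative ratios, of which only that of Myh9 was called. By TPM, Myh9, Myh10, Tpm3 and Tpm4 were all lower in technical replicate 2. Myh9, the non-muscle myosin heavy chain, was lower at -2.33 (2.89 TPM in technical replicate 2 and 161.86 TPM in technical replicate 1), and Tpm4, a tropomyosin of platelets and other cells, at -3.11 (8.02 TPM in technical replicate 2 and 373.28 TPM in technical replicate 1). Tpm3, the most abundant tropomyosin counterpart, was called higher at 1.21 (155.85 TPM in technical replicate 2 and 429.28 TPM in technical replicate 1). Myh10, another non-muscle heavy chain, was not called at -0.81 (-1.89 to 0.08). Its level was 0.75 TPM in technical replicate 2 and 4.64 TPM in technical replicate 1. Myl6, an essential light chain of smooth muscle and non-muscle myosin alike, was higher at 4.72 (2612.45 TPM in technical replicate 2 and 591.22 TPM in technical replicate 1). Actb, the cytoplasmic beta-actin, was higher at 3.30 (3568.31 TPM in technical replicate 2 and 2029.74 TPM in technical replicate 1), and Actg1, its gamma counterpart, was not called at 0.63. Actb was thus above Acta2 by TPM in both libraries.

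Over the 7 smooth muscle markers, 5 reached 1 TPM in technical replicate 2 and 7 in technical replicate 1, with summed levels of 277.94 TPM in technical replicate 2 and 215.61 TPM in technical replicate 1. The higher sum in technical replicate 2 rests on Tagln, without which the other 6 summed to 83.16 TPM in technical replicate 2 and 131.11 TPM in technical replicate 1. Below 1 TPM in technical replicate 2 were Myh11 and Lmod1, an actin filament nucleator of smooth muscle (0.40 TPM in technical replicate 2 and 2.06 TPM in technical replicate 1). Markers of other cells that make some of the 10 genes also differed between the libraries. The 8 pericyte markers summed to 14.14 TPM in technical replicate 2 and 52.84 TPM in technical replicate 1, with Higd1b at 0 counts in technical replicate 2 and 1 count in technical replicate 1. With TMM, 3 of the 6 tested were called higher and 1 lower, against 28.0% and 32.6% of all tested genes. Their median log2 ratio was 0.53 with TMM, against -0.27 for all, and -1.49 in log2(TPM + 1), against -2.10 for all. The 9 fibroblast and reticular cell markers summed to 918.33 TPM in technical replicate 2 and 686.61 TPM in technical replicate 1. The chemokines Ccl19 and Ccl21a carried 902.33 TPM of this in technical replicate 2 and 493.97 TPM in technical replicate 1, and the other 7 markers summed to 16.0 TPM in technical replicate 2 and 192.64 TPM in technical replicate 1. Within that list Ccl19, a chemokine of reticular cells, was higher at 4.22, and Col3a1, a fibrillar collagen, was lower at -4.58.

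The 8 platelet and megakaryocyte markers summed to 180.49 TPM in technical replicate 2 and 146.10 TPM in technical replicate 1. Without the integrin chain Itga2b the sums were 80.96 TPM in technical replicate 2 and 142.59 TPM in technical replicate 1. Ppbp alone held 4.68 TPM of these in technical replicate 2 and 89.92 TPM in technical replicate 1. Of 5 tested, 4 were called higher and 1, Ppbp, lower. Their median log2 ratio was 3.53 with TMM, against -0.27 for all tested genes. In log2(TPM + 1) it was 0.84, against -2.10 for all. The 5 mesothelium markers summed to 8.78 TPM in technical replicate 2 and 21.13 TPM in technical replicate 1, and 1 of them, Lrrn4, was at 0 in technical replicate 2. With TMM, 2 of the 3 mesothelium markers tested were called higher and 0 lower, with a median log2 ratio of 1.92. The 6 endothelium markers summed to 61.22 TPM in technical replicate 2 and 203.96 TPM in technical replicate 1. With TMM, 1 of these 6 was called higher and 1 lower, with a median of -0.66. Over all tested genes, 28.0% were called higher and 32.6% lower, with a median of -0.27. Of the 7 skeletal muscle markers, Acta1, Myh4 and Mb had 0 counts in both libraries. The 2 members tested, the fast skeletal troponin genes Tnni2 and Tnnt3, were called higher, at 3.63 and 2.88, with 9.98 and 8.61 TPM in technical replicate 2 and 4.37 and 3.88 TPM in technical replicate 1, and the list summed to 20.21 TPM in technical replicate 2 and 11.11 TPM in technical replicate 1. Of the 6 cardiac markers, Myh6 and Myl7 had 0 counts in both libraries, and the sum was 33.45 TPM in technical replicate 2 and 9.11 TPM in technical replicate 1, mainly from Tnni3. The part of the other cell types in the ratios of the 10 genes was not tested.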

How the data were processed

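Polyadenylated RNA of 1 mouse spleen was measured in 2 libraries, technical replicates 2 and 1. Per the file headers, each gene and each transcript has an expected count, an estimate that need not be whole. TPM, deposited beside it, sums to the same total for both libraries. FPKM, also deposited, kept 1 ratio to TPM for the 10 genes (20 of 20 values within 5%) and was not used further. The deposited percent value gives a transcript's share of its gene's TPM. The deposited lengths in bases, posterior SDs of counts and interval bounds are other measures. Per the text deposited with the tables, reads were aligned to mm10 with GENCODE M4. Aligner and quantifier are not given in the sources used here. The median length minus effective length was 134.57 bases in technical replicate 2 and 191.06 bases in technical replicate 1.

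Rows without an Ensembl identifier (0.00021% of counts in technical replicate 2, 1.09e-05% in technical replicate 1) were left out, and 42462 of 43346 genes were matched to a symbol. Expected counts were rounded, and TMM factors came from edgeR 4.0.16 under R 4.3.3, with DESeq2 1.42.0 size factors, upper quartile and total counts as alternatives. Ratios have exact Clopper-Pearson 95% intervals, conditional on the gene's summed count, and TPM intervals are exact Poisson intervals of the count. None of these cover more than counting error, and PCR copies are not independent molecules. Intervals of transcript shares, and the share that a count of 0 allows, take assigned counts as observed and leave out the uncertainty of assignment. Where a library had 0 counts, 3 counts stood in as a floor. The share that a count of 0 allows is these 3 counts over the gene's counts. It is smaller than the upper end of the exact 95% interval in technical replicate 2. That end is 6.27% for Tpm1, 1.05% for Tpm2 and 33.6% for Actg2. The call was checked on simulated counts with known folds. GC content, length and sequences came from GENCODE M21 (GRCm38) and promoters from RefSeq. Exons of Tpm1 were assigned from annotated coordinates.

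The members and lists were chosen with earlier results of these data known, and the spleen markers were added after the tables were seen. All 10 members are named. Of each of 4 context lists the rule names the 3 genes with the highest mean TPM and the highest and lowest called ratios, and of transcripts those with at least 10% of a gene's TPM. Of these, 1 gene is not reported here. Myocd, Mrtfa, Mrtfb, Myh9, Myh10, Tpm3, cell type markers, overlapping genes and lesser transcripts were named after their values were seen, and marker sums without their largest genes were added then. Other steps ran in Python 3.11.15 (scipy 1.17.1, pandas 2.3.3, numpy 2.4.6, Biopython 1.88, matplotlib 3.10.9).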

Additional observations from a re-analysis of the deposited data

How the results depend on the processing

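Of 80 rechecked calls of single genes, 60 kept their call or lack of one, 9 lost the call, 6 gained one and 5 reversed. The 80 include the 2-fold threshold and the 99% interval, which leave the ratio unchanged, and leave out changes of the filter. With no filter, Cnn1 lost its call at 1.19 and Mylk was called lower at -1.09. Of the 60, 1 changed sign without a call, Mylk at 0.18 with the GC and length trend removed. In log2(TPM + 1) and in log2(TPM + 0.1), where calls have no interval, 3 members were called higher and 6 lower, in place of 6 and 2. Cnn1 then stood at -0.61 and -0.92 and Myl9 at -1.32 and -1.35. With the GC and length trend removed 3 were called higher, and Myl9 stood at -1.06. The share of all tested genes called higher was 14.6% with total counts, 8.4% in log2(TPM + 1) and 8.83% in log2(TPM + 0.1), and the share called lower was 58.5%, 80.8% and 81.5%. Of context genes, 22 were called higher and 27 lower with TMM. Higher were 8 with total counts, 5 in each TPM form and 14 at 2-fold. Lower were 42 with total counts, 60 in log2(TPM + 1) and 61 in log2(TPM + 0.1). Summed TPM without Acta2 was 319.02 in technical replicate 2 and 375.19 in technical replicate 1. For all 10 members, with globin and mitochondrially encoded genes left out of the total, the sum was 713.15 TPM in technical replicate 2 and 526.33 TPM in technical replicate 1. Cnn1 also lost its call at the 99% interval and at 2-fold. The cause of these shifts was not tested. The leading transcript was the same for 7 of 7 genes with at least 20 counts in each library. No paired analysis was possible because each side has 1 library.

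Depth limits technical replicate 2, where Myh11 has 5 counts, Actg2 9, Cnn1 16 and Tpm1 57. For a Tpm1 transcript, a count of 0 there allows a share of up to 5.26% by counting error alone. The uncertainty of assigning reads to transcripts is not in this bound. Tpm1-215, at 0 counts, had a posterior SD of 7.77 counts there.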
